A study of Mus musculus with 6 samples.

Results

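Glucocorticoid, mineralocorticoid, progesterone and oestrogen receptors, with 4 of the coregulators they recruit, were followed here across 6 RNA sequencing libraries of 4T1, a mouse mammary carcinoma cell line. The 8 genes were taken by name from the 28154 genes of the deposited table. They are Nr3c1 (the glucocorticoid receptor), Nr3c2 (the mineralocorticoid receptor), Pgr (the progesterone receptor), Esr1 (oestrogen receptor alpha), the p160 coactivators Ncoa1, Ncoa2 and Ncoa3, and the corepressor Ncor1. All 8 were found once each and all 8 passed the filter on low counts. The control group holds 3 libraries of 4T1 cells labelled control. The corticosterone group holds 3 libraries of the same line labelled corticosterone-treated, corticosterone being the main glucocorticoid of mice. For dose, time, vehicle and serum the sources used here give no value. No label ties replicates to separate cultures, and a p-value here speaks of the spread between these libraries, which may be technical. In bulk RNA, fewer cells of a type and less RNA per cell cannot be told apart.

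Steroid receptors are transcription factors switched on by hormone. Corticosterone binds the glucocorticoid receptor, and binds the mineralocorticoid receptor more tightly. The bound receptor leaves its chaperones, enters the nucleus and binds DNA as a dimer, where p160 coactivators dock on its ligand-binding domain and bring in histone acetyltransferases. Ncor1 holds histone deacetylase 3 and is recruited by steroid receptors that carry an antagonist. In many cell types glucocorticoid lowers the transcript of its own receptor. 4T1 is commonly used as a model of mammary carcinoma that lacks oestrogen and progesterone receptors.

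Library totals lay between 62.2 and 66.2 M counts. One treated library, corticosterone replicate 2, differed from its group. Among 78 ribosomal protein genes its mean log2 level was 0.11 above the control mean, against 0.19 and 0.24 below it in corticosterone replicates 1 and 3 (-0.19 and -0.24). The controls lay between -0.05 and 0.05 in this measure. Fold changes of the 8 genes and counts of called genes are therefore given with and without corticosterone replicate 2. That library was singled out after its values were seen, so p-values of fits without it depend on this choice. In the fit across all 17283 tested genes 487 were called (adjusted p under 0.05), which is 2.82% of them. Of 8 epithelial markers 7 were in the table, and their summed level was 4023 to 4230 CPM (counts scaled to library size) in controls and 3709 to 4433 CPM with corticosterone. Leukocyte markers summed to 18 to 21.7 CPM and 19.3 to 22.7 CPM, fibroblast markers to 60.2 to 77.3 CPM and 71.9 to 77.0 CPM, and endothelial markers to 1.29 to 1.85 CPM and 0.658 to 0.843 CPM, in the same order of groups. Markers that passed the filter and were tested were 7 epithelial, 3 of 5 leukocyte, 4 fibroblast and 1 of 3 endothelial ones, and none of them was called. The endothelial sums did not overlap between the groups. The part of other cells in the results was not tested.

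Of the 8 genes 5 had an entry in the RefSeq promoter table (GRCm38.p6), which holds 250 bases before and 50 after each start. They were Nr3c2, Pgr, Esr1, Ncoa1 and Ncor1, and those without one were Nr3c1, Ncoa2 and Ncoa3. The 60 bases before a start are shown for Ncoa1 and Ncor1, which followed the same order of treated libraries below, and for Pgr, which was near 0. They are written 5′ to 3′ on the gene's strand, with CpG dinucleotides in capitals.
Ncoa1, chr12:4477183-4477242, minus strand: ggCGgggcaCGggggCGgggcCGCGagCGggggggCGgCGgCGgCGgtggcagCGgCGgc
Ncor1, upstream start, chr11:62457333-62457392, minus strand: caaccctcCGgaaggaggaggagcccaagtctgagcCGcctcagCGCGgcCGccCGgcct
Ncor1, internal start, chr11:62438516-62438575, minus strand: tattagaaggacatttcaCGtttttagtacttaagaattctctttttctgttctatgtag
Pgr, chr9:8899773-8899832, plus strand: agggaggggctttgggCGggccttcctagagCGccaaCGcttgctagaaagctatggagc
Over the full 300 bases, Ncoa1 held 49 CpG dinucleotides and the upstream start of Ncor1 held 36, at percentiles 99 and 93.8 of the 32851 promoters in the table. The internal start of Ncor1 held 2 and that of Pgr 6. The deposited values are per gene and do not separate the 2 starts of Ncor1. Its internal start is an annotated entry, and whether it is used in these cells was not tested.

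The glucocorticoid receptor binds 2 copies of TGTTCT facing each other over 3 bases, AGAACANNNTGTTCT. Both strands of each window were searched. The full palindrome was in none of the 7 windows of these genes, and in 0.00913% of all promoters. The half-site TGTTCT was in the windows of Ncoa1 (after the start) and of the internal start of Ncor1, and in 19% of all promoters. The oestrogen receptor palindrome GGTCANNNTGACC was also in none of the 7 windows, and in 0.07% of all promoters. Its half-site TGACC, in 40.5% of promoters, was in those of Nr3c2 and of 1 start of Esr1. Of the pair of half-sites at the internal start of Ncor1, the one farther from the start is shown with the half-site in capitals.
Ncor1, chr11:62438677-62438718, minus strand: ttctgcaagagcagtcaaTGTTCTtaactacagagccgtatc
A match is a description of these letters and not a bound site, and these windows do not reach distant elements.

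By level per length of transcript (FPKM), Ncor1 was the most abundant of the 8, followed by Nr3c1, Ncoa3, Ncoa2, Ncoa1, Esr1, Nr3c2 and Pgr. Means over the 6 libraries were 12.6, 5.24, 4.08, 2.40, 1.43, 0.455, 0.0829 and 0.00999 FPKM. Nr3c1 and Ncoa3 were the only neighbours in this order whose ranges over the 6 libraries overlapped (4.38 to 6.71 and 3.57 to 4.68 FPKM), though Nr3c1 was the higher in each of the 6. Among tested genes Ncor1 stood at percentile 77.0 of FPKM, Nr3c1 at 57.9, Esr1 at 23.4 and Nr3c2 at 6.74. Corticosteroid receptor transcripts were thus almost all Nr3c1. Of the summed FPKM of Nr3c1, Nr3c2 and Pgr, Nr3c1 made up 98.2 ± 0.189% in controls and 98.3 ± 0.771% with corticosterone (SD, n = 3). A two-sided exact permutation test gave p = 1, where 0.1 is the smallest this design allows.

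Transcripts of the 8 genes were not called different after corticosterone, neither higher nor lower. By edgeR's quasi-likelihood test 0 of the 8 passed at an adjusted p under 0.05, beside 2.82% of all tested genes, and 0 had an unadjusted p under 0.05, beside 17.0% of tested genes. DESeq2 and limma on log2(FPKM + 1) also called 0. The log2 fold changes ran from -0.65 (Esr1) to 0.74 (Pgr, at 40 counts in all 6 libraries), with 7 above 0, 1 below and a median of 0.22, against a median of 0 over all tested genes. The groups overlapped in CPM for each gene but Esr1, whereas they did not overlap for 22.2% of tested genes. Without corticosterone replicate 2, 4 of the 8 were called higher (Ncoa2, Nr3c1, Ncoa1 and Ncor1), where 10.5% of tested genes were called higher and 10% lower. Without corticosterone replicate 3 the values of these 4 moved the other way, to 0.23 for Ncoa2, 0.15 for Nr3c1, 0.18 for Ncoa1 and 0.05 for Ncor1, and 0 of the 8 were called.

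**Figure D1:**
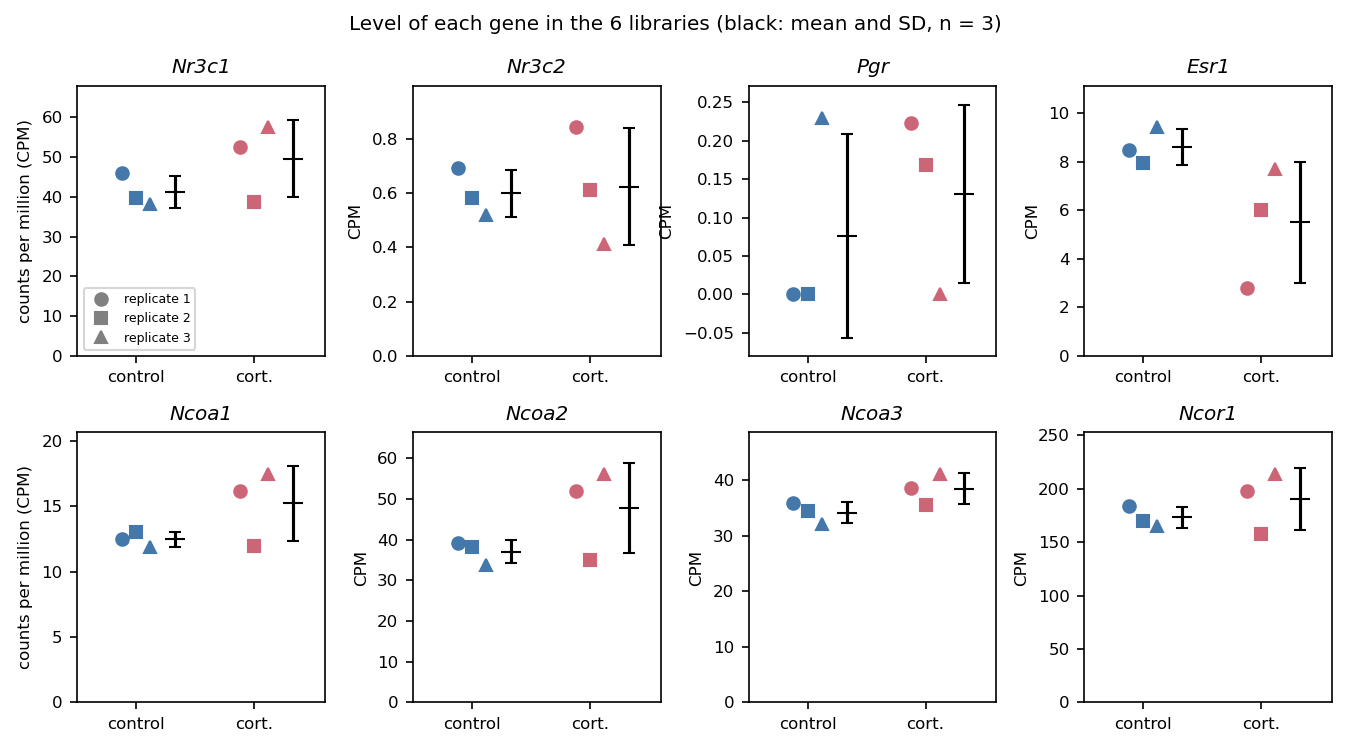
Level of each of the 8 genes in CPM (vertical axis, each panel with its own scale) in the 3 control and 3 corticosterone libraries (cort.), with symbols for replicate number and black marks for mean and SD. In Nr3c1, Ncoa1, Ncoa2, Ncoa3 and Ncor1, corticosterone replicates 1 and 3 lie above the controls and replicate 2 lies among or below them, while all 3 treated libraries of Esr1 lie below the controls.

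Nr3c1, the receptor through which corticosterone acts on most cells, lies on chromosome 18 (39410545 to 39519421, minus strand, GRCm38) and has 7.68 kb of exon. Its level was 45.9, 39.6 and 38.3 CPM in control replicates 1, 2 and 3. Corticosterone replicates 1, 2 and 3 had 52.6, 38.7 and 57.5 CPM. Corticosterone replicates 1 and 3 were thus above every control, and replicate 2 lay within the controls. The log2 fold change was 0.27 (SE 0.142, 95% interval -0.06 to 0.59; edgeR, Benjamini-Hochberg adjusted p = 0.391). On leaving out corticosterone replicate 2 it became 0.42 (edgeR, Benjamini-Hochberg adjusted p = 0.00949).

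Nr3c2 (chromosome 8, 76899442 to 77245012) was scarce, with 44, 38 and 34 counts in the control replicates and 53, 40 and 27 in the treated ones. The treated libraries spanned a wider range than the controls, on both sides of them. Its log2 fold change of 0.06 had a 95% interval of -0.73 to 0.84, so a change of moderate size in either direction was not detectable at this depth. The value was 0.07 without corticosterone replicate 2. The gene overlaps the antisense Gm10649, which had 3 counts over all libraries.

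Pgr (chromosome 9, 8899833 to 8968611) had 0, 0 and 15 counts in the controls and 14, 11 and 0 in the treated libraries. It was seen in 1 control and 2 treated libraries, and a count of 0 allows up to 3 counts. Its log2 fold change of 0.74 had an interval of -2.54 to 4.02, which gives no direction, and was 0.51 without corticosterone replicate 2. Esr1 (chromosome 10, 4611593 to 5005614), the other sex steroid receptor among the 8, was not at 0. It had 538, 519 and 615 counts in the controls, a level of 8.47, 7.95 and 9.42 CPM, and 2.80, 5.99 and 7.70 CPM in corticosterone replicates 1, 2 and 3. All 3 treated libraries were below all 3 controls, and replicate 1 was the lowest by a wide margin. The mean went from 8.62 ± 0.746 to 5.50 ± 2.49 CPM (SD, n = 3). The log2 fold change was -0.65 (SE 0.305, 95% interval -1.34 to 0.05; edgeR, Benjamini-Hochberg adjusted p = 0.327). Leaving out corticosterone replicate 1 made it -0.33, leaving out replicate 2 made it -0.71, and leaving out replicate 3 made it -0.97, none of which passed.

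The p160 coactivators bind the receptors' ligand-binding domain and carry acetyltransferases and methyltransferases to the promoter. Ncoa1 (SRC-1, chromosome 12, 4247362 to 4477182) was at 12.5, 13.0 and 11.9 CPM in the controls and 16.2, 12 and 17.5 CPM in the treated libraries. Ncoa2 (GRIP1, chromosome 1, 13139105 to 13374083), known also as a corepressor for the glucocorticoid receptor at inflammatory genes, was at 39.1, 38.3 and 33.8 CPM in the controls and 52.0, 35.1 and 56.2 CPM in the treated libraries. Ncoa3 (AIB1, chromosome 2, 165992636 to 166073242), named for its amplification in breast cancer, was at 36.0, 34.5 and 32.1 CPM and then 38.7, 35.6 and 41.2 CPM. In all 3 genes corticosterone replicate 3 was the highest library, replicate 1 the next, and replicate 2 lay within the range of the controls. Ncoa2 had the largest log2 fold change of the 3 (0.36, SE 0.160, 95% interval -0.0019 to 0.73; edgeR, Benjamini-Hochberg adjusted p = 0.295). For Ncoa1 it was 0.29 (interval -0.03 to 0.60) and for Ncoa3 0.17 (interval -0.01 to 0.36). Without corticosterone replicate 2 the values were 0.54 for Ncoa2, 0.43 for Ncoa1 and 0.22 for Ncoa3 (edgeR, Benjamini-Hochberg adjusted p = 0.0022, 0.0114 and 0.0523). Ncoa3 overlaps Sulf2 on the opposite strand over 154 bases, and since it is not known whether counting used strand, reads there cannot be assigned to either gene.

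Ncor1 (chromosome 11, 62316426 to 62457332), the corepressor that docks histone deacetylase 3, was at 184, 170 and 165 CPM in the controls. In corticosterone replicates 1, 2 and 3 it was at 198, 158 and 214 CPM. The treated libraries thus lay on both sides of the controls, with replicate 2 the lowest of the 6. The log2 fold change was 0.14 (SE 0.105, 95% interval -0.10 to 0.38; edgeR, Benjamini-Hochberg adjusted p = 0.561). Leaving out corticosterone replicate 2 made it 0.25. Ncor1 overlaps Ttc19 and Gm12276 on the opposite strand. These had 10040 counts together over their whole length, against 70336 for Ncor1. Their overlaps with Ncor1 add up to 11999 bases of gene span. Without the strand of counting, reads in exon bases shared there cannot be assigned, and their number is not known.

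**Figure D2:**
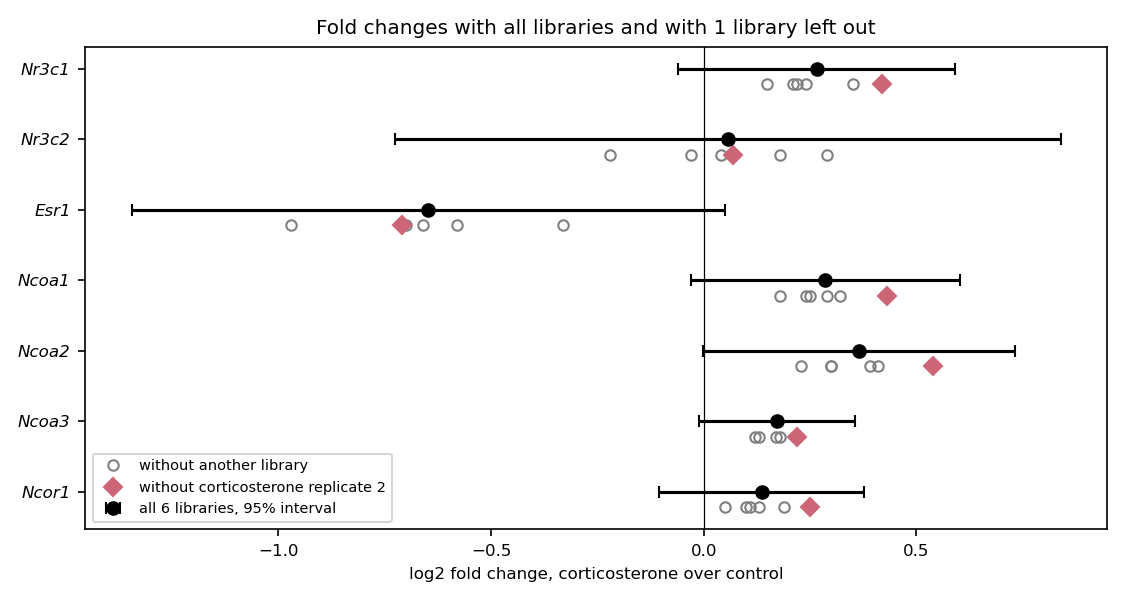
Log2 fold change of corticosterone over control (horizontal axis) for 7 of the 8 genes, with 95% intervals from all 6 libraries in black and the values with 1 library left out as open circles or, for corticosterone replicate 2, as diamonds. Each black interval includes 0. For Nr3c1, Ncoa1, Ncoa2 and Ncor1 the diamond is the highest value. For Ncoa3 it is level with the value without control replicate 1 (0.22 each, as rounded). Pgr, whose interval runs from -2.54 to 4.02, is not drawn.

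Nr3c1, Ncoa1, Ncoa2, Ncoa3 and Ncor1 varied together across libraries. These 5 were grouped after their values were seen, so high correlations among them follow in part from that choice. Their mean log2 difference from the control mean was 0.32, -0.06 and 0.43 in corticosterone replicates 1, 2 and 3. Pearson correlations of log2 CPM between pairs of the 5 ran from 0.87 (Ncoa3 with Ncor1) to 0.99 (Ncoa1 with Ncoa2) over the 6 libraries, which share their depth and scaling. Corticosterone replicates 1 and 3 above all controls, with replicate 2 not above them, was the order in 5 of the 8 genes, and in 14.0% of tested genes. Esr1, Nr3c2 and Pgr did not follow it, with correlations to Nr3c1 of -0.41, -0.05 and -0.28.

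Measures of the whole library moved with these 5 genes. The median log2 difference of the 3197 tested genes with at least 7 kb of exon was 0.10, -0.05 and 0.16 in corticosterone replicates 1, 2 and 3, and that of the 4523 genes under 2 kb was -0.08, 0.05 and -0.12. The 5 genes have 7.68 to 15.6 kb of exon, while the median over tested genes is 3.60 kb. Esr1, Pgr and Nr3c2, which did not follow the order of the 5, have 13.7, 8.55 and 6.47 kb. Mitochondrial transcripts took 3.52%, 3.80% and 3.30% of counts in the same libraries and 3.93%, 3.91% and 4.01% in the controls, so all 3 treated libraries, replicate 2 included, lay below every control. When a trend on exon length and GC content was fitted in each library and used as an offset, an alternative chosen after seeing the data, the log2 fold changes were 0.17 for Nr3c1, 0.22 for Ncoa1, 0.23 for Ncoa2, 0.13 for Ncoa3, 0.03 for Ncor1 and -0.77 for Esr1, and 0 of the 8 were called. The part of transcript length or RNA quality in the values without offsets was otherwise not tested.

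**Figure D3:**
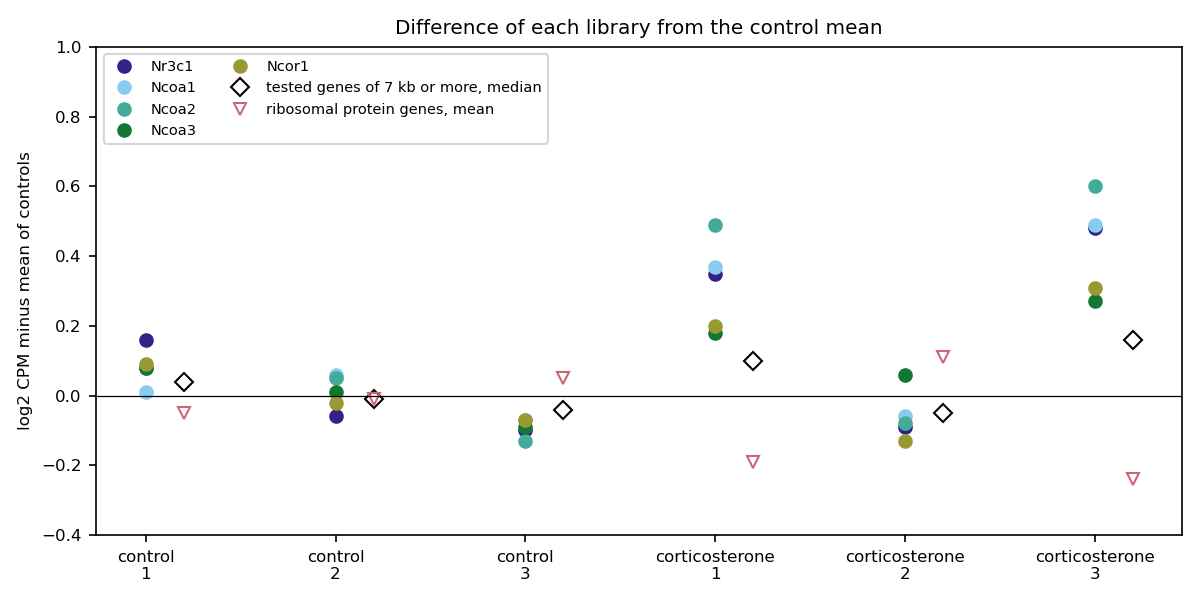
Log2 CPM minus the control mean (vertical axis) in each of the 6 libraries for 5 genes (filled circles), with the median of tested genes of 7 kb or more of exon (diamonds) and the mean of 78 ribosomal protein genes (triangles). The 5 genes and the long genes are high in corticosterone replicates 1 and 3 and near 0 in replicate 2, where ribosomal protein genes lie above 0.

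Genes whose level followed each of the 8 most closely were taken from tested genes with a mean of at least 5 FPKM, by Pearson correlation of log2 CPM over the 6 libraries. For Nr3c1 they were Uba6, Fam76b and Anln (r of 0.9994, 0.9982 and 0.9982), and 546 of 7438 genes had r over 0.95. For Ncor1 they were Kdm2a, Ly75 and Cnot1, with 518 such genes. For Ncoa1 they were Larp4b, Fbxo30 and Chuk, for Ncoa2 Atp2c1, Uhrf2 and Abcc1, and for Ncoa3 Aftph, Zfp655 and Tmem65, with 328, 475 and 205 genes over 0.95. Esr1 had 9 genes over 0.95, led by Armc10 (0.9772), Pgr 7, led by Sumo2, and Nr3c2 1, Gm9816. Counts of Pgr and Nr3c2 were too low for their numbers to be set beside those of the other genes.

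Within a library, the balance of p160 coactivators to Ncor1 was the measure that separated the groups in every library. The summed FPKM of Ncoa1, Ncoa2 and Ncoa3 over that of Ncor1 was 0.593, 0.626 and 0.592 in control replicates 1, 2 and 3. With corticosterone the ratio was 0.655, 0.659 and 0.648, in the same order. All 3 treated libraries were above all 3 controls, and replicate 2 was the highest. The means were 0.604 ± 0.0194 and 0.654 ± 0.00533 (SD, n = 3), and the difference was 0.0502. By exact permutation its two-sided p was 0.1, which is also the smallest that 3 against 3 can give. This ratio does not depend on the scaling of libraries.

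No single coactivator carried that difference in all treated libraries. Ncoa2 over Ncor1 was 0.174, 0.184 and 0.168 in controls and 0.215, 0.181 and 0.215 in corticosterone replicates 1, 2 and 3, so replicate 2 lay among the controls. Ncoa3 over Ncor1 was 0.317, 0.329 and 0.316 in controls and 0.317, 0.365 and 0.312 with corticosterone, so here replicate 2 alone was high. Of the summed p160 FPKM, Ncoa3 made up 53.1 ± 0.573% in controls and 50.7 ± 4.08% with corticosterone, Ncoa2 29.0 ± 0.557% and 31.2 ± 3.16%, and Ncoa1 17.8 ± 0.578% and 18.2 ± 0.924% (SD, n = 3). In each of the 3 shares the groups overlapped (exact permutation tests, two-sided p = 0.4, 0.4 and 0.6, each 0.6 after Benjamini-Hochberg adjustment over the 3).

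**Figure D4:**
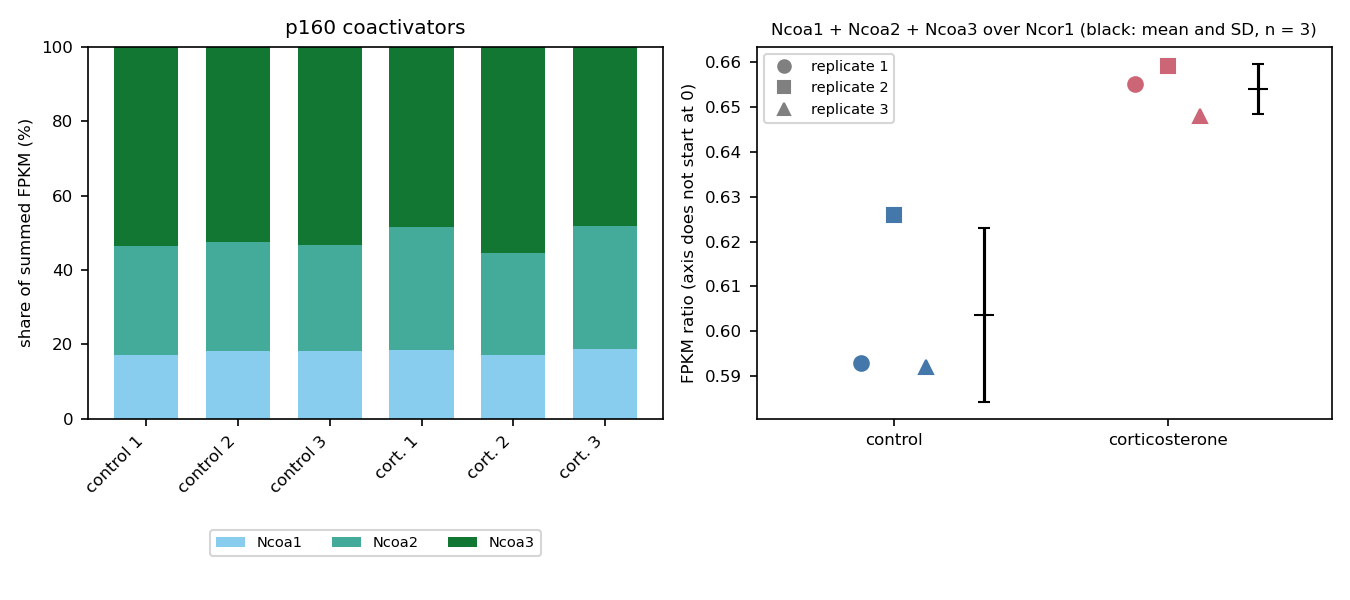
Left, shares of Ncoa1, Ncoa2 and Ncoa3 in their summed FPKM (vertical axis, percent) in each library. Right, the ratio of their summed FPKM to that of Ncor1 (vertical axis, not from 0) by group with mean and SD; the treated libraries lie between 0.648 and 0.659 and the controls between 0.592 and 0.626.

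Other receptors for steroids or their relatives did not pass. Of 11 genes, 10 were in the table and 9 were tested, and 0 were called by edgeR. An unadjusted p under 0.05 was reached by 3 of the 9, beside 17.0% of tested genes. The median log2 fold change of the 9 was -0.16. Gper1, a membrane receptor for oestrogen, had 27, 50 and 29 counts in the controls and 11, 7 and 6 in the treated libraries, with no overlap. Its log2 fold change was -2.11 (SE 0.466, interval -3.18 to -1.05), with a Benjamini-Hochberg adjusted p of 0.0549 by edgeR, or 0.0374 without corticosterone replicate 2. It overlaps 3110082I17Rik on the opposite strand. The membrane progestin receptors Paqr7 (-0.59) and Paqr8 (-0.30) were also lower in every treated library than in any control and did not pass. Such a lack of overlap, in either direction, was seen in 22.2% of tested genes. Without corticosterone replicate 2, 2 of the 9 were called lower, Gper1 and Paqr7 (-0.59; edgeR, Benjamini-Hochberg adjusted p = 0.045), and 0 higher, beside 10% and 10.5% of tested genes.

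Among 28 tested coactivators outside the 8 genes 1 rose and 27 did not pass, with a median log2 fold change of 0.05. Of all tested genes 1.35% were called higher. Trim24 (TIF1-alpha), a bromodomain coregulator of nuclear receptors, went from 32.0 ± 1.42 to 43.7 ± 4.05 CPM (SD, n = 3). On the log2 scale the change was 0.45 with an SE of 0.0843 (edgeR, Benjamini-Hochberg adjusted p = 0.030). It passed in 1 of the 6 fits that leave a library out, the one without corticosterone replicate 2 (edgeR, Benjamini-Hochberg adjusted p up to 0.173, without control replicate 2). It also did not pass with the replicate block, with no low count filter or with limma on log2(FPKM + 1) (Benjamini-Hochberg adjusted p of 0.077, 0.0792 and 0.0509). Next by p were the splicing factor and coactivator Rbm39 (0.19), Pprc1 (0.14) and Ncoa6 (0.21). Without corticosterone replicate 2, 9 of the 28 were called higher, among them the acetyltransferases Ep300 and Crebbp, and 3 lower (these 2 named after their values were seen), where 10.5% of tested genes were called higher and 10% lower.

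Of 20 tested corepressors 0 were called by edgeR (4 at an unadjusted p under 0.05, a limit passed by 17.0% of tested genes), with a median of -0.02. Those with the lowest p were Nrip1 (RIP140, 0.52), Lcor (0.58), both ligand-dependent corepressors, and the deacetylase Hdac1 (-0.15). Nrip1 was at 26.6, 24.4 and 23.7 CPM in controls and 39.2, 26.2 and 41.7 CPM in corticosterone replicates 1, 2 and 3, so its replicate 2 lay with the controls as that of Ncoa2 did. Without that library 6 of the 20 corepressors were called higher and 3 lower, beside 10.5% and 10% of tested genes. Of 14 tested chaperones of the receptors, Fkbp5 rose (0.77), a target of the glucocorticoid receptor that slows it in turn, and 13 did not pass, among them Hsp90aa1 (0.15), Hspa8 (-0.14) and Stub1 (-0.12). The median over the chaperones was -0.03, and 1.35% of all tested genes were called higher. Leaving out corticosterone replicate 2, 2 of the 14 were called higher, Fkbp5 and Hsp90aa1, and 4 lower, Hspa8 and Stub1 among them, at -0.26 and -0.22. In that fit 10.5% of tested genes were called higher and 10% lower.

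Called targets of the glucocorticoid receptor were above every control in all 3 treated libraries, corticosterone replicate 2 included. Of 9 tested targets 5 rose: Per1, Tsc22d3, Klf9, Sgk1 and Fkbp5. Among all tested genes 1.35% were called higher. Per1, a clock repressor, was at 62.6, 71.1 and 65.3 CPM in corticosterone replicates 1, 2 and 3, against 18.4 to 20.5 CPM in controls. Tsc22d3 was at 70.5, 67.6 and 72.1 CPM against 23.2 to 25.1 CPM. Klf9 was at 73.5, 62.6 and 82.3 CPM against 28.3 to 30.8 CPM, and Sgk1 at 215, 189 and 226 CPM against 100 to 113 CPM. Replicate 2 was the lowest treated library in 4 of these 5 targets, all but Per1, and still above the controls, whereas in Nr3c1, Ncoa1 and Ncoa2 it lay within the controls. Without replicate 2, 6 of the 9 were called higher, Ddit4 (0.20) being the added one, beside 10.5% of tested genes. These targets were chosen as known responders and had been seen to rise in these data, so their count is no independent evidence.

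Of 15 targets and partners of the oestrogen and progesterone receptors in mammary epithelium 12 were in the table and 9 were tested. With all 6 libraries 1 of the 9 was called, beside 2.82% of all tested genes. Igfbp4, an insulin-like growth factor binding protein, fell from 684 ± 24.6 to 437 ± 57.1 CPM (SD, n = 3). On the log2 scale the change was -0.65 with an SE of 0.0889 (edgeR, Benjamini-Hochberg adjusted p = 0.00914); it did not pass without control replicates 2 or 3 or corticosterone replicate 1 (edgeR, Benjamini-Hochberg adjusted p of 0.0754, 0.0540 and 0.0683). The other 8 did not pass with all 6 libraries, with the lowest p for Xbp1 (0.21), the growth factor Areg (-0.24) and Gata3 (-0.17), a luminal transcription factor. The median of the list was -0.17. In the fit without corticosterone replicate 2 Xbp1 was called higher (0.19), and Igfbp4 and Areg lower (-0.76 and -0.31). The same fit called 10.5% of tested genes higher and 10% lower. Greb1, Wnt4 and Tnfsf11 had too few counts to be tested (named after that was seen).

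**Figure D5:**
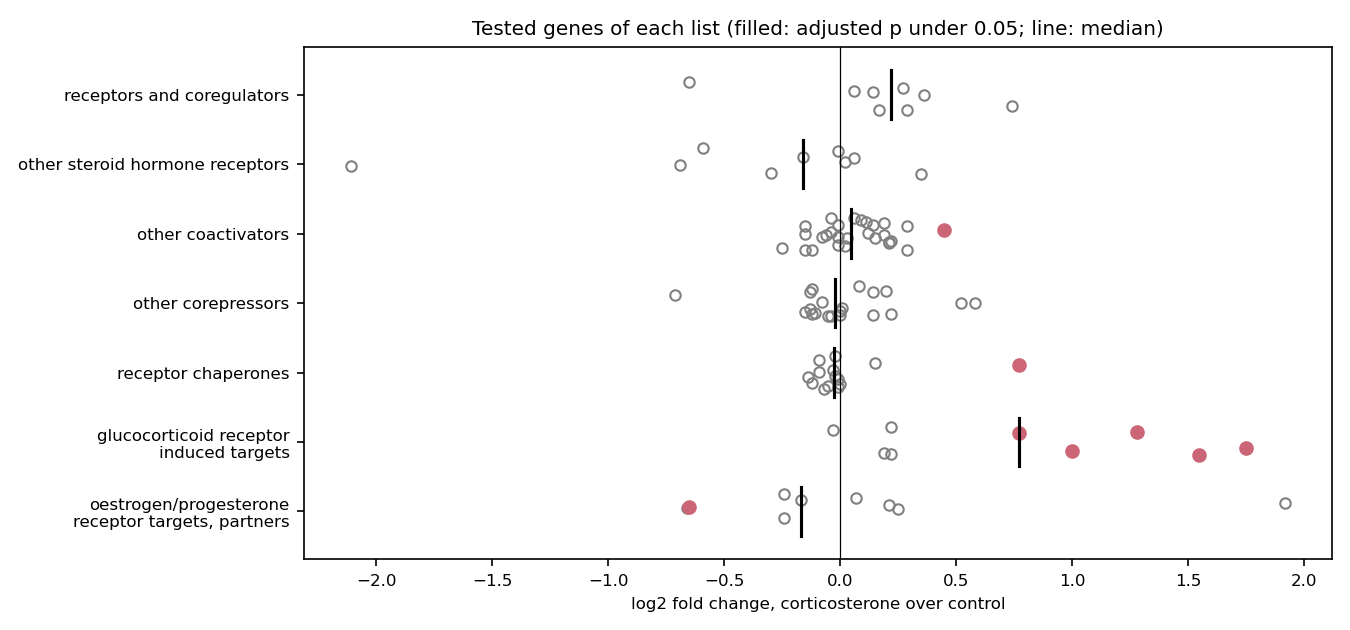
Log2 fold change of corticosterone over control (horizontal axis) of each tested gene, by list; filled points have an adjusted p under 0.05 and black lines mark the median of a list. The 8 receptors and coregulators hold no filled point and have a median of 0.22, while 5 of 9 glucocorticoid receptor targets are filled.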

How the data were processed

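The deposited table holds counts per gene and FPKM for each of the 6 libraries. Counts were deposited unnormalized, as whole numbers, and the FPKM were computed by the authors, per the file headers. For aligner, counter and strandedness the sources used here give nothing. RNA was isolated with a column kit and TRIzol, per the labels' protocols. A human genome build is named in the submitters' processing notes, but gene identifiers and coordinates are mouse. Coordinates printed are those of the table, and those of the 8 genes lie in GENCODE M21 (GRCm38) at the same place, except that Ncor1 ends earlier in the table. Exon length is the union of exons in GENCODE M21. No value column was left unmapped (0).

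Groups follow the treatment label. Counts were scaled by TMM, kept where filterByExpr passed them (count of 10, total of 15) and tested with edgeR 4.0.16 (R 4.3.3) by quasi-likelihood with group as the only factor, Benjamini-Hochberg over 17283 genes. CPM use the TMM-scaled library size. Intervals of 95% come from the SE of that fit. Shares and ratios of FPKM were tested by permuting the 6 libraries exactly (scipy 1.17.1). The code was tested on simulated data. A count of 3 was the upper limit for a count of 0, for counting error only.

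The genes and lists were chosen with earlier results of these data known. Named are the 8 genes, in each list the called genes and up to 3 more by lowest p, in the list of other receptors those removed by the filter, and up to 3 genes by correlation. Some genes that this rule names are not reported here. Alternatives were DESeq2 1.42.0, limma 3.58.1 on log2(FPKM + 1) or log2(FPKM + 0.1), median ratio scaling, library totals alone, other low count filters, a replicate block and each library left out. Deviations of same-numbered libraries from their group means correlated at 0.0106, 0.0379 and -0.0884, so they were not paired.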

Additional observations from a re-analysis of the deposited data

How the results depend on the processing

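The number of genes called was 487, and 211 with no low count filter, 1293 with DESeq2, 260 with limma on log2(FPKM + 1) with no filter, 1068 with length and GC offsets (chosen after seeing the data) and 88 to 3670 with 1 library left out, 88 without control replicate 2 and 3670 without corticosterone replicate 2. With the replicate block it was 237, fewer than the 487 of the unpaired fit, and 0 of the 8 genes were called. Of the 8 genes 0 were called under each alternative but the one without corticosterone replicate 2, where 4 were (range 0 to 4 with 1 library left out). Called genes of the related lists numbered 7, and 13 with DESeq2, 11 with length and GC offsets, 6 with the replicate block and 5 to 37 with 1 library left out. The log2 fold change of Nr3c2 was -0.03 without control replicate 3 and -0.22 without corticosterone replicate 1, in a range of -0.22 to 0.29 with 1 library left out. The difference in the share of Nr3c1 in receptor FPKM was 0.104 percentage points, and ran from -0.34 (without corticosterone replicate 3) to 0.337 with 1 library left out, being -0.0039 without control replicate 3. The difference in the ratio of p160 coactivators to Ncor1 ran from 0.0443 to 0.0614 with 1 library left out and was 0.0486 from counts. The other 7 of the 8 genes and the 3 p160 shares kept their direction under each alternative that could be fitted; limma with its filter and the minimum of 1 FPKM leave out Esr1, Nr3c2 and Pgr. The cause of these shifts was not tested, except that leaving out a library also leaves fewer samples. Depth limits Pgr and Nr3c2.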
